A study of Mus musculus with 8 samples.

Results

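A set of 10 genes of retinoid signalling were followed in mouse embryonic stem cells (ESCs) with and without the nuclear transporter Importin-13 (IPO13). They are Cyp26a1, Cyp26b1, Cyp2s1, Dhrs3, Crabp1, Crabp2, Rara, Rarb, Rarg and Stra8, and they were taken by symbol, 10 of the 23420 gene symbols in each count table. Cyp2s1 was included as a cytochrome P450 with reported retinoic acid metabolism. All 10 had reads in all 8 libraries and entered the test.

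The 8 libraries formed 4 groups of 2, IPO13+/+ ESCs and IPO13-/- ESCs, each left untreated or exposed to 125 µM H2O2 for 1 h and then given 2 h of recovery in fresh medium. Both genotypes were of the 129 x C57BL/6 background, derived from day 5 preimplantation blastocysts, and were grown without feeders in serum and LIF, a cytokine that keeps ESCs undifferentiated. The purpose was to find genes that depend on IPO13 before and after oxidative stress. The genotypes are represented by different ESC lines, so the knockout and other differences between the lines cannot be told apart. The labels do not say whether replicates were separate cultures, and the p-values below therefore measure the spread between these libraries, which may be technical.

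Retinol is oxidised to retinal and then to retinoic acid, and DHRS3 works against this flow by reducing retinal back to retinol. Retinoic acid enters the nucleus, where it binds the receptors RARα, RARβ and RARγ, which sit on DNA together with RXR partners, while CRABP proteins carry it inside the cell and CYP26 enzymes oxidise it to polar products. Cyp26a1, Rarb, Dhrs3 and Stra8 are well-known targets of the pathway, and retinoic acid is widely used to drive ESCs out of the undifferentiated state.

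Total reads on genes lay between 60397877 and 73789079 per library, so that a floor of 3 counts corresponded to 0.0407 to 0.0497 CPM, read counts relative to the library total. This floor covers counting error only. Ipo13 reads fell from 4716 and 4786 in untreated IPO13+/+ libraries to 1965 and 1555 in untreated IPO13-/- libraries, a log2 fold change of -1.44 ± 0.05 (SE; edgeR quasi-likelihood test, adjusted p = 9.53e-19), and the treated libraries showed -1.48. Summed markers of undifferentiated ESCs stood at 4642 to 5183 CPM, against 15.9 to 24.1 CPM for primitive endoderm and 14.5 to 25.9 CPM for trophectoderm. Some marker sums moved with genotype. Trophectoderm markers summed to 22.3 to 25.9 CPM in IPO13+/+ and 18.6 to 19.5 CPM in IPO13-/- libraries without treatment. After H2O2 they summed to 18.6 to 19.8 and 14.5 to 15.9 CPM. Primitive endoderm markers summed to 21.5 to 24.1 and 19.3 to 19.7 CPM without treatment, and the genotypes overlapped after H2O2. Eomes alone had a mean of 17.7 CPM and Sox7 alone 16.2 CPM in untreated IPO13+/+ libraries. Germ cell markers summed to 50.8 to 57.1 CPM in IPO13+/+ and 79.3 to 82.5 CPM in IPO13-/- libraries, markers of a state like that of the early cleavage embryo to 1.01 to 1.40 and 1.96 to 2.82 CPM, and the undifferentiated markers to 5168 to 5183 CPM in untreated IPO13+/+ against 4647 to 4661 CPM in untreated IPO13-/- libraries. At an edgeR adjusted p below 0.05, 18.7% of all genes were higher and 19.4% lower in untreated IPO13-/- ESCs. Of the 5 germ cell markers measured, 4 were higher and 1 lower. Of 5 early cleavage markers, 4 were higher and 0 lower, and of 8 undifferentiated markers, 2 were higher and 4 lower. Of 6 trophectoderm markers, 1 was higher and 2 lower, and of 7 primitive endoderm markers, 0 were higher and 1 lower. None of these genes was at 0 in any group. Neural markers summed to 144 to 147 against 156 CPM without treatment and 127 to 130 against 156 to 157 CPM after H2O2, with 2 of 4 higher and 1 lower in untreated IPO13-/- ESCs. Tubb3 alone had means of 122 against 127 CPM without treatment and 108 against 132 CPM after H2O2. It did not pass between untreated genotypes (edgeR adjusted p = 0.316). The higher markers were Pax6 and Nes and the lower one was Sox1, at 9.56 against 4.96 CPM untreated. Markers of primed cells and early mesoderm summed to 309 to 315 against 340 to 348 CPM without treatment, with 2 of 6 higher and 0 lower. After H2O2 they summed to 261 to 268 against 284 to 293 CPM, lower in both genotypes. Dnmt3b alone had a mean of 289 CPM in untreated IPO13+/+ libraries. Of the 6, H2O2 raised 0 and lowered 2 in IPO13+/+ ESCs, where 11.5% of all genes were higher and 13.8% lower. In IPO13-/- ESCs it lowered 3 and raised 1, where 14.4% of all genes were lower and 14.9% higher. The raised marker was Fgf5 (log2 1.08 ± 0.18 SE, edgeR adjusted p = 3.01e-05). After H2O2 the undifferentiated markers summed to 4841 to 4852 CPM in IPO13+/+ and 4642 to 4662 CPM in IPO13-/- libraries. Of these 8, H2O2 raised 0 and lowered 6 in IPO13+/+ ESCs, and raised 3 and lowered 3 in IPO13-/- ESCs. The shares of all genes are those just given. The part of these marker genes in the results below was not tested. In bulk RNA, fewer cells of a type and less RNA per cell cannot be told apart.

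The retinoic acid receptor binds a direct repeat of a short motif, and a spacing of 5 bases (DR5) is its classical arrangement. Promoter windows of RefSeq (GRCm38.p6), running from 250 bases before to 50 bases after each start, were searched on both strands for 2 copies of the motif in direct repeat, allowing AGGTCA, the variant AGTTCA, the variant GGGTCA and the variant GGTTCA. Windows were found for 9 of the 10 genes. Crabp2 had no entry. Of the 9, Cyp26a1 and Rarb held a DR5, which was present in 0.0974% of all 32851 windows (31 of 27025 genes). None of the 9 held a repeat spaced by 2 bases, found in 0.268% of all windows, or by 1 base, found in 0.222%. The 150 bases before the start of these genes are shown on the gene's strand, because they carry the repeats, whose copies of the motif are in capitals. In Cyp26a1 the stretch is chr19:37697658-37697807 on the plus strand, and in Rarb chr14:16575477-16575626 on the minus strand.
Cyp26a1: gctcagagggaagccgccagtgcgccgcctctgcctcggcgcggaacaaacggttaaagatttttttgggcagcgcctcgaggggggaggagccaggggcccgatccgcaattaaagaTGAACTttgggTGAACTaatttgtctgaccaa
Rarb: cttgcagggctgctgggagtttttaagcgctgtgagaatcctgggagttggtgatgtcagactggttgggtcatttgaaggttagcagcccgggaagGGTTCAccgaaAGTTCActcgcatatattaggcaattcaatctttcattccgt
The Cyp26a1 repeat occupies chr19:37697776-37697792, 16 to 32 bases before the start, and reads on the opposite strand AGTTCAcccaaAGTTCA. The Rarb repeat occupies chr14:16575513-16575529, 37 to 53 bases before the start, and reads on the gene's strand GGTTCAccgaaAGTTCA. The start used for Rarb lies inside the gene, which spans chr14:16430839-16819156 in GENCODE M21. The GC box GGGCGG, bound by SP1, was present in windows of 6 of the 9 genes (Crabp1, Cyp26a1, Cyp26b1, Cyp2s1, Rara and Rarg) and in 38.2% of all genes. A match is a description of the letters and not evidence of binding.

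**Figure D1:**
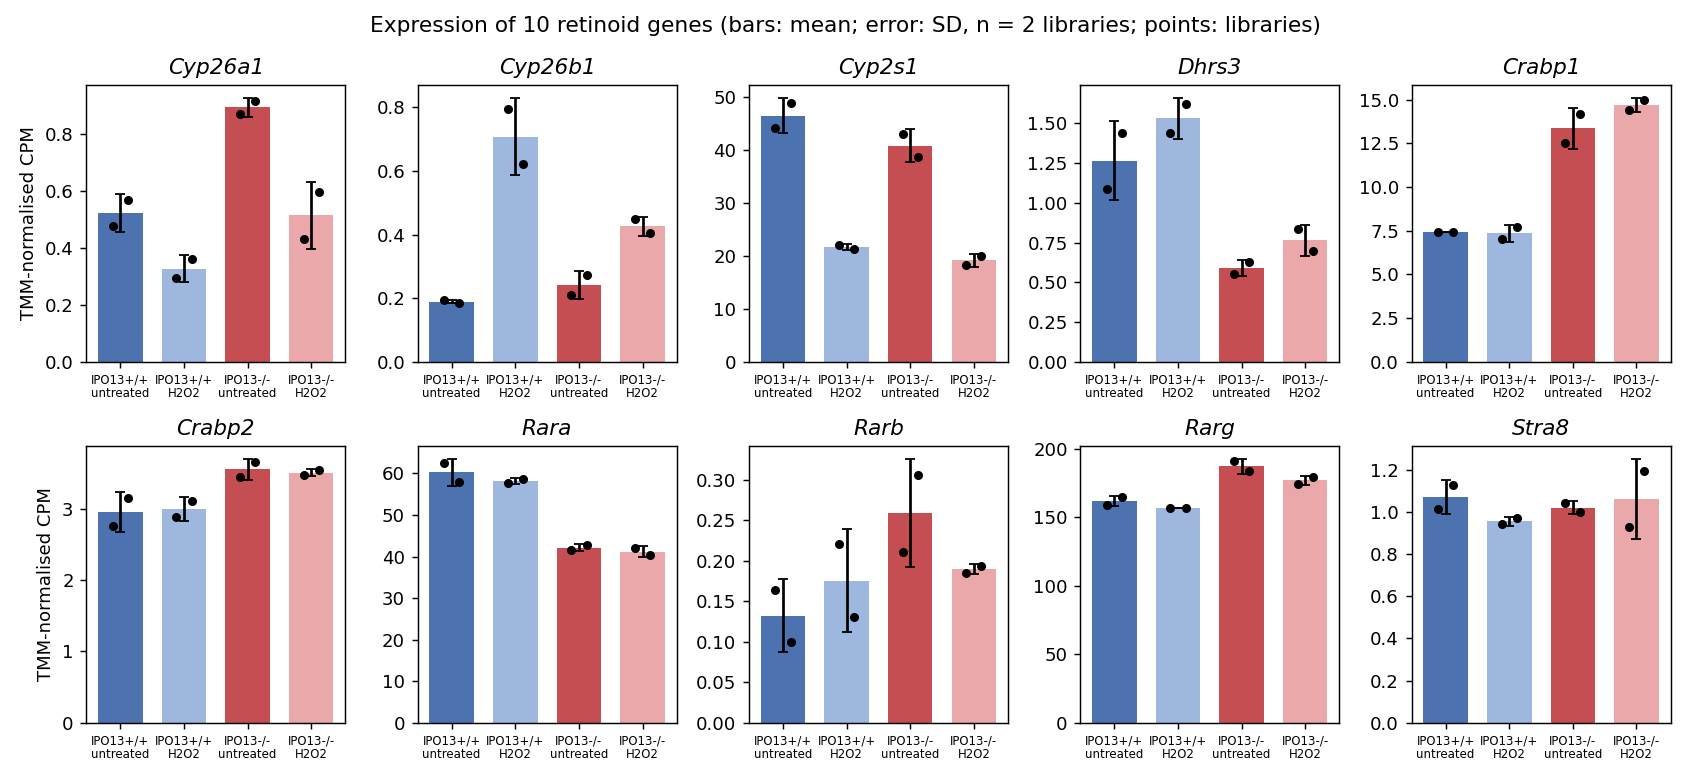
Expression of the 10 genes in CPM after TMM scaling in the 4 groups. Bars are means, error bars the SD of 2 libraries and points single libraries. Cyp2s1 was lower in both H2O2 groups, at 21.7 and 19.2 CPM against 46.5 and 40.9 CPM, and Crabp1 was higher in both IPO13-/- groups, at 13.4 and 14.7 CPM against 7.43 and 7.37 CPM.

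The level per length of transcript, in CPM per kb of exon in untreated IPO13+/+ ESCs, placed the receptor genes Rarg and Rara first. Rarg stood at 38.0 ± 0.90 (SD, n = 2) and Rara at 13.8 ± 0.736. Cyp2s1 followed at 9.42 ± 0.675 and Crabp1 at 9.26 ± 0.0127, and the libraries of this pair overlapped. Crabp2 stood at 2.24 ± 0.213. The remaining genes were under 1 CPM per kb, with Stra8 at 0.594 ± 0.0448, Dhrs3 at 0.432 ± 0.0855 and Cyp26a1 at 0.264 ± 0.0335. Cyp26b1 (0.0354 ± 0.00108) and Rarb (0.0251 ± 0.00860) were lowest, with no overlap between their libraries. In untreated IPO13-/- ESCs the order differed at 3 places. Crabp1 at 16.7 ± 1.45 stood above Rara at 9.66 ± 0.184, Cyp26a1 at 0.451 ± 0.0166 stood above Dhrs3 at 0.202 ± 0.0178, and Rarb at 0.0491 ± 0.0127 stood beside Cyp26b1 at 0.0453 ± 0.00827 with overlapping libraries.

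In untreated cells, 7 of the 10 genes differed between the genotypes at an adjusted p below 0.05 by edgeR's quasi-likelihood test with Benjamini-Hochberg adjustment over 19424 genes. Cyp26a1, Crabp1, Crabp2 and Rarg were higher in IPO13-/- ESCs (4 genes; 18.7% of all genes were higher), while Cyp2s1, Dhrs3 and Rara were lower (3 genes; 19.4% of all genes were lower). Dhrs3 alone among the 10 also passed 2-fold (1.84% of all genes were 2-fold lower and 2.86% were 2-fold higher). The 10 genes had a median log2 fold change of 0.24, and all genes tested one of 0.00.

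After H2O2, 6 of the 10 differed between the genotypes. Crabp1 and Rarg were higher in IPO13-/- ESCs (2 genes, where 19.1% of all genes were higher) and Cyp26b1, Cyp2s1, Dhrs3 and Rara were lower (4 genes, where 17.5% of all genes were lower). No member passed 2-fold (2.58% of all genes were 2-fold higher and 1.98% 2-fold lower), with a median of 0.13 against 0.00 over all genes. H2O2 changed 2 of the 10 in IPO13+/+ ESCs, Cyp26b1 upwards (11.5% of all genes were higher) and Cyp2s1 downwards (13.8% were lower), both by at least 2-fold (2.75% of all genes were 2-fold higher and 0.149% 2-fold lower). In IPO13-/- ESCs it changed 3, Cyp26b1 upwards (14.9% of all genes were higher) and Cyp26a1 and Cyp2s1 downwards (14.4% were lower), with Cyp2s1 past 2-fold (0.371% of all genes were 2-fold lower and 2.52% 2-fold higher). The medians for H2O2 were -0.03 and -0.02 against -0.00 and 0.00 over all genes. The comparisons share libraries in pairs and are not independent of each other. The paper had already reported from these data that H2O2 lowered Cyp2s1 with or without IPO13, and used it as a control. Its place in the H2O2 counts was therefore known beforehand.

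**Figure D2:**
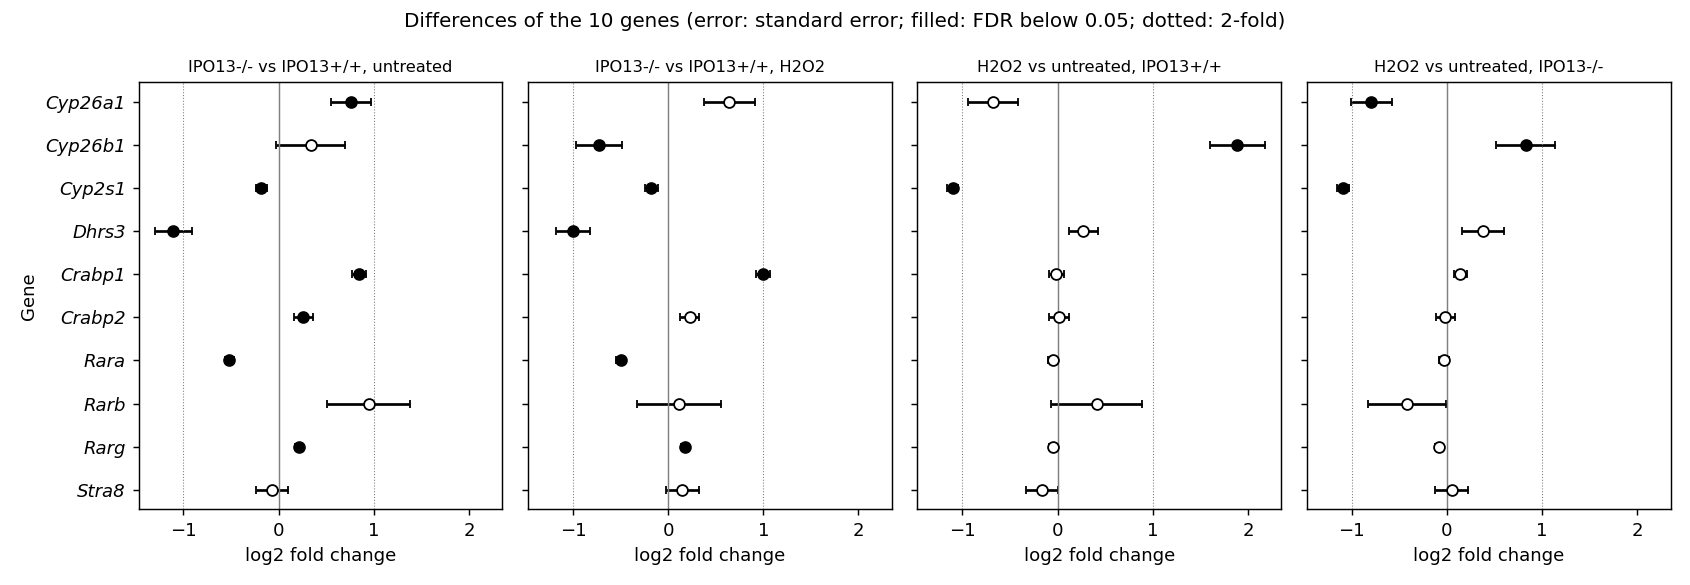
Log2 fold changes of the 10 genes in the 4 comparisons, with standard errors. Filled points have an adjusted p below 0.05 (edgeR) and dotted lines mark 2-fold. The genotype panels show Dhrs3 at -1.11 and -0.997 and Crabp1 at 0.84 and 0.99, and the H2O2 panels show Cyp2s1 at -1.10 and -1.09.

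Among the clearance enzymes, Cyp26a1, the main retinoic acid hydroxylase of early embryos, had 32 and 40 reads in untreated IPO13+/+ libraries and 66 and 57 in untreated IPO13-/- libraries. After H2O2 it had 20 and 25 reads in IPO13+/+ and 28 and 37 in IPO13-/- libraries. The untreated IPO13-/- libraries were thus the highest of the 8, and no group overlapped with its counterpart of the other genotype or treatment. Scaled to CPM, the means were 0.524 ± 0.0665 and 0.895 ± 0.0330 without treatment, and 0.328 ± 0.0479 and 0.515 ± 0.117 after H2O2 (SD, n = 2), for IPO13+/+ and IPO13-/- respectively. In untreated cells the gene was 1.70-fold higher in IPO13-/- ESCs (log2 0.76 ± 0.21 SE, edgeR adjusted p = 0.00462), although DESeq2 gave an adjusted p of 0.103. H2O2 lowered it 1.74-fold in IPO13-/- ESCs (log2 -0.80 ± 0.22, edgeR adjusted p = 0.00572). That call was lost without untreated IPO13-/- replicate 2 (-0.74, adjusted p = 0.0567), without treated IPO13-/- replicate 1 (-0.56, adjusted p = 0.126) and with DESeq2 (adjusted p = 0.115). The H2O2 difference in IPO13+/+ ESCs, -0.67 ± 0.26, did not pass (edgeR adjusted p = 0.0631), nor did the genotype difference after H2O2, 0.64 ± 0.27 (adjusted p = 0.0655), which passed without treated IPO13-/- replicate 1 (0.86, adjusted p = 0.0391). The difference between the stress responses of the genotypes was -0.12 ± 0.35 on the log2 scale (edgeR adjusted p = 0.981).

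Cyp26b1, a second CYP26 hydroxylase that keeps retinoic acid away from germ cells of the fetal testis, moved the other way. It had 13 reads in each of the untreated IPO13+/+ libraries and 54 and 43 after H2O2. In IPO13-/- libraries it had 16 and 17 reads without and 29 and 25 with H2O2. Every treated library was above every untreated one, and the treated IPO13+/+ libraries were the highest. Mean levels rose from 0.190 ± 0.00579 to 0.708 ± 0.121 CPM in IPO13+/+ ESCs, 3.70-fold (log2 1.89 ± 0.29 SE, edgeR adjusted p = 1.03e-05). In IPO13-/- ESCs they went from 0.243 ± 0.0442 to 0.426 ± 0.0309 CPM, 1.77-fold (0.83 ± 0.31, edgeR adjusted p = 0.0443). The latter call held in 2 of 8 fits that each left out 1 library, being lost without either treated IPO13+/+ replicate (adjusted p of 0.0526 and 0.0511), without either untreated IPO13-/- replicate (0.281 and 0.0638) and without either treated IPO13-/- replicate (0.179 and 0.0950). It was also lost with limma-voom (adjusted p = 0.0550), with DESeq2 (adjusted p = 0.248) and with library totals in place of TMM factors (adjusted p = 0.0514).

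After H2O2, Cyp26b1 was 1.66-fold lower in IPO13-/- than in IPO13+/+ ESCs (log2 -0.73 ± 0.24 SE, edgeR adjusted p = 0.0186). This call was lost without treated IPO13+/+ replicate 1 (-0.54, adjusted p = 0.213), without treated IPO13-/- replicate 1 (-0.80, adjusted p = 0.0558) or replicate 2 (-0.66, adjusted p = 0.110), and with DESeq2 (adjusted p = 0.205). Without treatment the genotypes differed by 0.33 ± 0.37, which did not pass (edgeR adjusted p = 0.546). The stress response was 1.06 ± 0.44 log2 units smaller in IPO13-/- ESCs, a difference of -1.06 with an unadjusted p of 0.0234 in the edgeR fit and an adjusted p of 0.231, so the genotypes were not shown to differ in their response.

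The ratio of Cyp26a1 to Cyp26b1 reads within a library combined these movements and is free of library scaling. It was 2.46 and 3.08 in untreated IPO13+/+ libraries and fell to 0.370 and 0.581 after H2O2. In IPO13-/- libraries it was 4.13 and 3.35 without treatment and 0.966 and 1.48 after H2O2. All 4 treated libraries were therefore below all 4 untreated ones, and treated IPO13-/- libraries were above treated IPO13+/+ libraries. With 2 libraries against 2, a permutation test cannot go below p = 0.333, and no test of the ratios was made.

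Cyp2s1, an inducible P450 of epithelia, was the most abundant of the P450 genes followed here. It had 2963 and 3424 reads in untreated IPO13+/+ libraries and 1503 and 1469 after H2O2, and 3263 and 2403 reads in untreated IPO13-/- libraries and 1187 and 1243 after H2O2. Treated and untreated libraries were well separated in both genotypes. The mean fell 2.15-fold in IPO13+/+ ESCs, from 46.5 ± 3.33 to 21.7 ± 0.592 CPM (log2 -1.10 ± 0.06 SE, edgeR adjusted p = 4.83e-14). It fell 2.13-fold in IPO13-/- ESCs, from 40.9 ± 3.10 to 19.2 ± 1.25 CPM (-1.09 ± 0.06, edgeR adjusted p = 8.93e-14). The responses differed by 0.01 ± 0.09 log2 units (adjusted p = 1.00), a value whose sign depended on the scaling. Cyp2s1 was also slightly lower in IPO13-/- ESCs, by -0.18 ± 0.06 untreated (edgeR adjusted p = 0.0114) and -0.17 ± 0.07 after H2O2 (adjusted p = 0.0365). The untreated call was lost without untreated IPO13+/+ replicate 2 (-0.11, adjusted p = 0.170), without untreated IPO13-/- replicate 2 (-0.11, adjusted p = 0.322) and with library totals (-0.10, adjusted p = 0.164), and the treated one held in 3 of 8 fits that left out 1 library and had an adjusted p of 0.0924 with limma-voom and 0.0554 with DESeq2. Exons of Cyp2s1 share 260 bases (5.27%) with Gm26707 on the opposite strand, and whether counting used the strand is not given in the sources used here.

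Dhrs3, the retinal reductase, was the member that was lowest in IPO13-/- relative to IPO13+/+ ESCs. It had 73 and 101 reads in untreated IPO13+/+ libraries and 98 and 112 in treated ones, against 42 and 39 and then 54 and 43 in IPO13-/- libraries. Every IPO13-/- library was below every IPO13+/+ library. Mean levels were 1.26 ± 0.250 and 0.591 ± 0.0521 CPM without treatment, a 2.15-fold difference (log2 -1.11 ± 0.19 SE, edgeR adjusted p = 3.31e-05). After H2O2 they were 1.53 ± 0.127 and 0.765 ± 0.0982 CPM, a 2.00-fold difference just short of the 2-fold threshold (-0.997 ± 0.18, edgeR adjusted p = 4.67e-05). All 8 fits that left out 1 library kept both calls, with values of -1.29 to -0.89 untreated and -1.14 to -0.87 treated. H2O2 itself gave 0.27 ± 0.15 in IPO13+/+ (edgeR adjusted p = 0.228) and 0.38 ± 0.22 in IPO13-/- ESCs (adjusted p = 0.217), and neither passed.

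Of the binding proteins, Crabp1, which delivers retinoic acid to metabolising enzymes, had 499 and 520 reads in untreated IPO13+/+ libraries and 478 and 533 in treated ones. It had 950 and 881 reads in untreated IPO13-/- libraries and 932 and 926 in treated ones. All IPO13-/- libraries were above all IPO13+/+ libraries, and treatment groups of a genotype lay close together. Untreated levels were 7.43 ± 0.0102 and 13.4 ± 1.16 CPM, a 1.79-fold difference (log2 0.84 ± 0.07 SE, edgeR adjusted p = 3.87e-10). Treated levels were 7.37 ± 0.485 and 14.7 ± 0.407 CPM, a 1.99-fold difference (0.99 ± 0.07, edgeR adjusted p = 1.70e-11). H2O2 gave -0.01 ± 0.08 in IPO13+/+ ESCs, whose sign changed with the scaling, and 0.14 ± 0.07 in IPO13-/- ESCs (edgeR adjusted p = 0.131), which passed without untreated IPO13-/- replicate 2 (0.25, adjusted p = 0.0351).

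Crabp2, which hands retinoic acid to the receptors in the nucleus, differed less. It had 185 and 221 reads in untreated IPO13+/+ libraries and 196 and 215 in treated ones, and 261 and 227 in untreated IPO13-/- libraries and 225 and 219 in treated ones. In CPM the untreated means were 2.96 ± 0.281 and 3.55 ± 0.149, with no overlap (log2 0.26 ± 0.10 SE, edgeR adjusted p = 0.0433). Only 3 of 8 fits that left out 1 library kept this call. It was lost without untreated IPO13+/+ replicate 1 (0.17, adjusted p = 0.316), either untreated IPO13-/- replicate (0.33, adjusted p = 0.0692, and 0.23, adjusted p = 0.188) or either treated IPO13+/+ replicate (adjusted p of 0.0541 and 0.0542), with limma-voom (adjusted p = 0.0708) and with DESeq2 (adjusted p = 0.250). After H2O2 the means were 3.0 ± 0.163 and 3.51 ± 0.0462 CPM, and the difference of 0.23 ± 0.10 did not pass (edgeR adjusted p = 0.0880). The ratio of Crabp1 to Crabp2 reads was 2.35 to 2.70 in the 4 IPO13+/+ libraries and 3.64 to 4.23 in the 4 IPO13-/- libraries.

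The receptors moved in opposite directions between the genotypes. Rara, which encodes RARα, had 4199 and 4066 reads in untreated IPO13+/+ libraries and 3931 and 4062 in treated ones, and 3149 and 2652 in untreated IPO13-/- libraries and 2727 and 2493 in treated ones. Every IPO13-/- library was lower than every IPO13+/+ library. Mean levels were 60.3 ± 3.21 against 42.1 ± 0.804 CPM without treatment, 1.43-fold lower in IPO13-/- ESCs (log2 -0.52 ± 0.05 SE, edgeR adjusted p = 1.57e-09). After H2O2 they were 58.3 ± 0.703 against 41.2 ± 1.28 CPM, 1.41-fold lower (-0.50 ± 0.05, edgeR adjusted p = 3.45e-09).

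Rarg, which encodes RARγ, was the highest per length of the retinoic acid receptor genes. The gene had 10681 and 11532 reads in untreated IPO13+/+ libraries and 10690 and 10849 in treated ones. It had 14476 and 11394 reads in untreated IPO13-/- libraries and 11306 and 11097 in treated ones, which differ in total depth. After scaling, the IPO13-/- libraries were above the IPO13+/+ libraries at 187 ± 5.39 against 162 ± 3.83 CPM untreated (1.16-fold, log2 0.21 ± 0.04 SE, edgeR adjusted p = 0.000129) and 177 ± 3.38 against 157 ± 0.107 CPM treated (1.13-fold, 0.17 ± 0.04, adjusted p = 0.00119). The calls for Rara and Rarg were kept in all 8 fits that left out 1 library, in both comparisons. Neither receptor passed for H2O2 in either genotype, with values from -0.08 to -0.03, except that Rarg in IPO13-/- ESCs passed when library totals replaced the TMM factors (-0.11, edgeR adjusted p = 0.0315).

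The ratio of Rarg to Rara reads does not depend on library scaling. It was 2.54 and 2.84 in untreated IPO13+/+ libraries and 2.72 and 2.67 in treated ones, and 4.60 and 4.30 in untreated IPO13-/- libraries and 4.15 and 4.45 in treated ones. The lowest IPO13-/- value was above the highest IPO13+/+ value, and the treatment groups of each genotype overlapped.

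**Figure D3:**
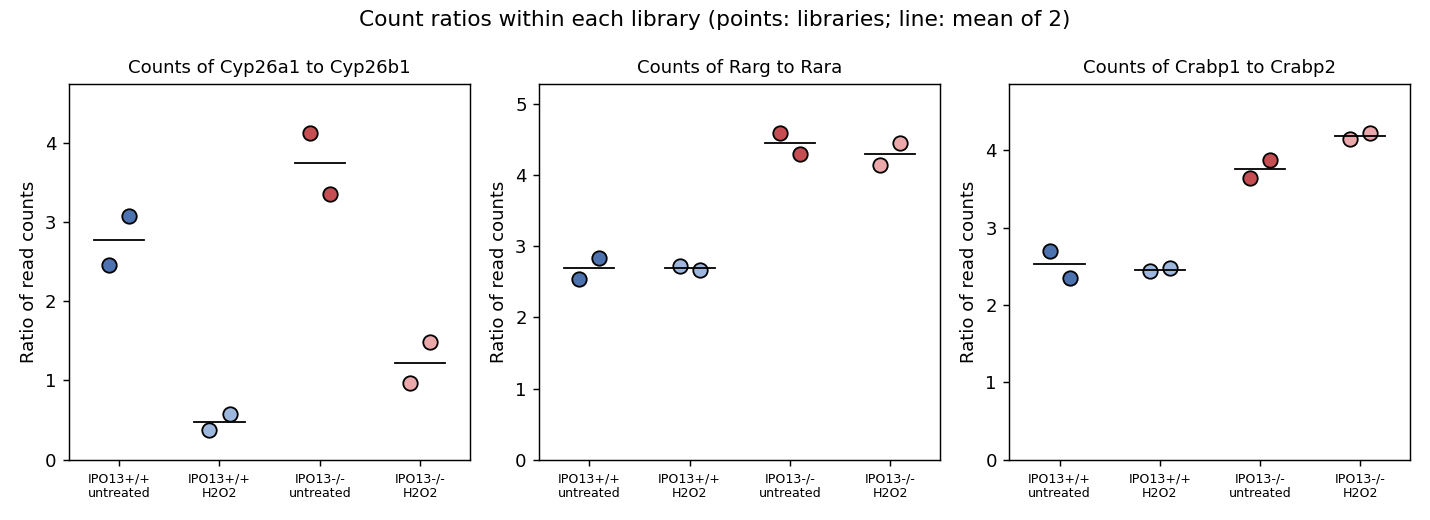
Ratios of read counts of gene pairs within each library, for the clearance enzymes, the receptors and the binding proteins. Points are libraries and lines the mean of 2. The ratio of Cyp26a1 to Cyp26b1 separates treated from untreated libraries, while Rarg to Rara (2.54 to 2.84 against 4.15 to 4.60) and Crabp1 to Crabp2 (2.35 to 2.70 against 3.64 to 4.23) separate the genotypes.

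Rarb, which encodes RARβ and is itself a retinoic acid target, was sparsely counted, with 7 to 19 reads per library. It had 11 and 7 reads in untreated IPO13+/+ libraries and 15 and 9 in treated ones, and 16 and 19 in untreated IPO13-/- libraries and 12 and 12 in treated ones. The untreated genotypes did not overlap, at 0.132 ± 0.0453 and 0.259 ± 0.0670 CPM, but the difference of 0.94 ± 0.43 on the log2 scale did not pass (edgeR adjusted p = 0.0913). The other comparisons gave 0.11 to 0.41 and -0.42 ± 0.41 (adjusted p of 0.517 to 0.896), and none passed. Exons of Rarb share 1793 bases (34.1%) with Top2b, a topoisomerase gene, and 227 bases (4.31%) with Gm48162, both on the opposite strand, so that without a stated strand setting some of these reads are uncertain.

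Stra8, a retinoic acid target that is needed for meiosis in germ cells, had 60 to 79 reads in the 8 libraries. Its means were 1.07 ± 0.0808 and 0.955 ± 0.0203 CPM in untreated and treated IPO13+/+ ESCs, and 1.02 ± 0.0315 and 1.06 ± 0.191 CPM in untreated and treated IPO13-/- ESCs. The genotype differences of -0.07 ± 0.17 and 0.15 ± 0.17 and the H2O2 differences of -0.17 ± 0.17 and 0.05 ± 0.17 (log2 ± SE) did not pass (edgeR adjusted p of at least 0.563). Over the same libraries the summed germ cell markers were 79.3 to 82.5 CPM in IPO13-/- against 50.8 to 57.1 CPM in IPO13+/+ ESCs. Most of the untreated gap came from Dazl (31.6 against 16.4 CPM) and Ddx4 (23.3 against 12.7 CPM). Dmc1 (16.2 against 14.4 CPM) and Rec8 (6.11 against 5.14 CPM) differed less, and Sycp3 was lower (5.01 against 6.97 CPM).

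No member passed the test of a difference between the stress responses of the genotypes, where 2.71% of all genes passed, 2.01% with a higher and 0.705% with a lower response in IPO13-/- ESCs (edgeR), and none passed with limma-voom, DESeq2 or the replicate number as a block. At an unadjusted p under 0.05, edgeR and limma-voom each gave 1 member, Cyp26b1, and DESeq2 gave 0. Rarb had the next largest value, -0.83 ± 0.62 on the log2 scale (adjusted p = 0.604), and the others lay between -0.12 and 0.22.

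The 10 genes were set beside 51 other genes of the pathway, all of which were tested. In untreated cells 7 of the 51 were higher and 9 lower in IPO13-/- ESCs (edgeR adjusted p below 0.05), where 18.7% of all genes were higher and 19.4% lower. After H2O2 10 were higher and 7 lower, where 19.1% and 17.5% of all genes were. The medians were 0.03 and -0.01 on the log2 scale. H2O2 gave 2 higher and 7 lower in IPO13+/+ ESCs (11.5% and 13.8% of all genes) and 3 higher and 6 lower in IPO13-/- ESCs (14.9% and 14.4% of all genes), with medians of 0.00.

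Of 15 dehydrogenase and carotenoid cleavage genes, 6 were lower and 0 higher in untreated IPO13-/- ESCs, where 19.4% of all genes were lower and 18.7% higher by edgeR. Bcmo1, which cleaves β-carotene to retinal, had 28 and 22 reads in untreated IPO13+/+ and 3 and 5 in untreated IPO13-/- libraries (log2 -2.61 ± 0.46 SE, edgeR adjusted p = 4.87e-05). After H2O2 it had 39 and 36 against 1 and 3 reads (-4.04 ± 0.49, adjusted p = 2.02e-07), where the IPO13-/- libraries were at or under the floor of 3 counts. Summed over libraries and scaled by their totals, the treated groups differed 17.2-fold (exact binomial 95% interval of 6.45 to 64.8, counting error only) and the untreated groups 5.94-fold (2.79 to 14.5). The fitted value for treated cells ran from -4.99 without treated IPO13-/- replicate 2 to -3.45 without replicate 1. Adh7, a retinol dehydrogenase, had 32 and 32 against 14 and 13 reads after H2O2 (-1.12 ± 0.34, edgeR adjusted p = 0.00967). Untreated, it had 29 and 31 against 11 and 2 reads (-2.19 ± 0.41, edgeR adjusted p = 8.16e-05), where 2 reads lie under the floor of 3 counts. The value was -1.57 without untreated IPO13-/- replicate 2 and -3.67 without replicate 1, and passed in all 8 fits that left out 1 library. Dhrs4, a retinal reductase named here after its values were seen, had 2458 and 2656 against 1582 and 1290 reads (-0.84 ± 0.05, adjusted p = 3.87e-13). After H2O2, 4 of the 15 were lower and 1 higher in IPO13-/- ESCs, where 17.5% of all genes were lower and 19.1% higher by edgeR. The higher one was Adh1, an alcohol dehydrogenase that oxidises retinol. It had 11 and 10 against 23 and 29 reads (1.41 ± 0.39, edgeR adjusted p = 0.00512). This call was lost with DESeq2 (adjusted p = 0.0644) and without treated IPO13-/- replicate 2, where the value was 1.20.

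Of 4 genes of retinoic acid synthesis, 1 was higher and 1 lower in untreated IPO13-/- ESCs, where 18.7% and 19.4% of all genes were by edgeR. Aldh1a3, a retinal dehydrogenase, had 143 and 190 reads in untreated IPO13+/+ and 43 and 39 in untreated IPO13-/- libraries, 4.07-fold lower (log2 -2.02 ± 0.16 SE, edgeR adjusted p = 1.11e-10). Aldh1a2, the main retinal dehydrogenase of the embryo and named after its values were seen, had 217 and 199 against 297 and 272 reads, 1.36-fold higher (0.45 ± 0.10, edgeR adjusted p = 0.000770). After H2O2 Aldh1a3 rose to 66 and 70 reads in IPO13-/- libraries (0.85 ± 0.20, edgeR adjusted p = 0.00158), a call lost without untreated IPO13-/- replicate 1 (adjusted p = 0.0649), and stood at 172 and 160 in IPO13+/+ libraries (-0.00 ± 0.12).

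Of the 3 receptor partners, Rxra was 1.36-fold higher in untreated IPO13-/- ESCs (0.44 ± 0.05, edgeR adjusted p = 2.45e-08; named after its values were seen) and Rxrg was lower, while Rxrb gave -0.05 ± 0.05. H2O2 lowered Rxrg in IPO13+/+ ESCs from 54 and 60 to 30 and 45 reads (-0.60 ± 0.22, edgeR adjusted p = 0.0464). Most fits that left out 1 library lost this call, and its value was lowest in size without treated IPO13+/+ replicate 1 (-0.35). The call was also lost with library totals (adjusted p = 0.0682), both other filters (0.0719 and 0.0611) and the fit of 4 libraries (0.121). Limma-voom (0.0820) and DESeq2 (0.329) lost it too.

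Of 14 other retinoic acid targets, 2 were higher and 1 lower in untreated IPO13-/- ESCs, where 18.7% and 19.4% of all genes were. After H2O2 4 were higher and 1 lower, where 19.1% and 17.5% of all genes were. Cdx1, a caudal-type transcription factor, was lowered by H2O2 in both genotypes, from 197 and 241 to 144 and 139 reads in IPO13+/+ (-0.63 ± 0.12, edgeR adjusted p = 0.000146) and from 142 and 135 to 82 and 87 reads in IPO13-/- libraries (-0.59 ± 0.14, adjusted p = 0.00194; 0.0629 without untreated IPO13-/- replicate 2). Meis2, a homeobox transcription factor, fell from 167 and 140 to 86 and 82 reads in IPO13-/- ESCs (-0.75 ± 0.13, edgeR adjusted p = 4.59e-05). In IPO13+/+ ESCs Meis2 went from 124 and 126 to 102 and 99 reads (-0.31 ± 0.13), which did not pass (edgeR adjusted p = 0.0746). The difference between these responses, -0.43 ± 0.18, did not pass either (edgeR adjusted p = 0.243). Of 7 co-regulators, 4 were lower after H2O2 in IPO13+/+ ESCs (13.8% of all genes) and 3 in IPO13-/- ESCs (14.4% of all genes), among them the coactivator Ncoa2 (-0.33 ± 0.06 in IPO13+/+, edgeR adjusted p = 6.85e-05).

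**Figure D4:**
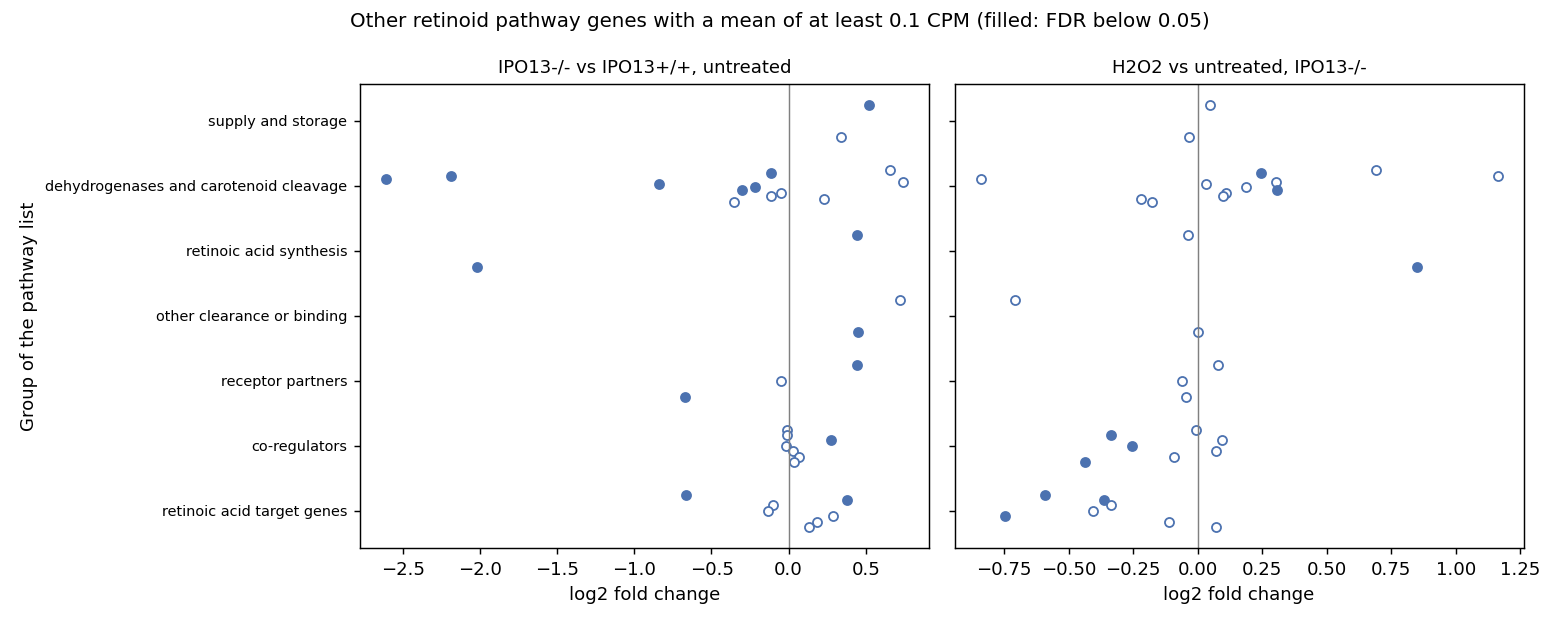
Log2 fold changes of the other pathway genes with a mean of at least 0.1 CPM (35 genes), grouped by role, between genotypes without treatment and for H2O2 in IPO13-/- ESCs. Filled points have an adjusted p below 0.05 (edgeR). The leftmost points on the left are Bcmo1 (-2.61), Adh7 (-2.19) and Aldh1a3 (-2.02).

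The genes whose pattern was most like that of Cyp26a1 over the 8 libraries, by Pearson's r of log2 CPM among 12198 genes with a mean of at least 1 CPM, were Adam10 (r = 0.99), Usp25 (r = 0.99) and Spryd3 (r = 0.98). Their span was narrower, as Adam10 had group means of 45.5 and 38.5 CPM in untreated and treated IPO13+/+ and 54.0 and 45.5 CPM in untreated and treated IPO13-/- ESCs. For Cyp2s1 they were Ctps (r = 0.997), Wdr3 (r = 0.996) and Sdc2 (r = 0.995), with Ctps at 205 and 188 CPM and at 203 and 185 CPM in the same order. These values are descriptions over 8 libraries in 4 groups, chosen as the highest of all genes.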

How the data were processed

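Polyadenylated RNA of 8 ESC libraries was sequenced as paired ends. The authors mapped the reads to mm10 and deposited, for each library, raw counts per gene symbol and CPM, each count divided by the library total. The submitters' processing notes name bcl2fastq, STAR 2.3.1, HTSeq and limma. The annotation and strand setting of the counting are not given in the sources used here. The deposited CPM differed from values recomputed from the counts by at most 0.0005, and counts were used throughout. In each table, 2 symbols damaged by spreadsheet software occur repeatedly.

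Replicates of a group differed by more than counting noise. The chi-square per gene was 15.0 in untreated and 2.26 in treated IPO13+/+ libraries, and 4.58 and 6.59 in untreated and treated IPO13-/- libraries. The fit shared its estimate of the spread between the 4 groups, so a p-value does not measure the spread of a single group. Genes without any read were dropped, and the remaining 19424 (minimum of 1 count) were fitted in 1 model of all 8 libraries with edgeR 4.0.16 (R 4.3.3), TMM factors quasi-likelihood F tests and Benjamini-Hochberg adjustment. A gene passed at an adjusted p below 0.05, and 2-fold calls also needed a log2 fold change of 1 or more in either direction. The SE was obtained by dividing the size of the log2 fold change by the root of F. The steps were tested on simulated data. Positions and exon lengths are from GENCODE M21 on GRCm38, promoter sequences from RefSeq on GRCm38.p6.

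All 10 members were named, and from the pathway list at most the 3 largest changes per comparison among genes that passed and reached 10 counts in each library of some group. Further names are marked in the text. A gene that the rule also named is counted in the totals but not reported here. Members and lists were chosen with earlier results of these data known. Alternatives were limma-voom (limma 3.58.1), DESeq2 1.42.0, relative log expression factors, library totals, 2 other filters, fits of only the 4 libraries compared, the replicate block and leaving out each library. A fit without a library leaves a lone sample in its group, assumed to vary like the other groups.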

Additional observations from a re-analysis of the deposited data

Results flagged for a closer look

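For 3 of the 51 other pathway genes the stress response differed between the genotypes by the interaction test of edgeR, and none of the 10 members did. All 3 had a higher response in IPO13-/- ESCs. Over all genes 2.71% passed, 2.01% with a higher and 0.705% with a lower response. Aldh1a3 had an interaction of 0.85 on the log2 scale (adjusted p = 0.0448), from 0.85 in IPO13-/- and -0.00 in IPO13+/+ ESCs, and 1 of 8 fits that left out 1 library kept the call (0.67 to 1.01). It was lost with library totals (adjusted p = 0.0616), both other filters (0.0948 and 0.0875), limma-voom (0.158) and DESeq2 (0.368). Rdh11, a retinal reductase, had 1615 and 1628 reads in untreated IPO13+/+ libraries and 1522 and 1505 in treated ones, and 1418 and 1217 in untreated IPO13-/- libraries and 1536 and 1462 in treated ones. Its interaction was 0.41 (adjusted p = 0.00208), which 7 of 8 such fits kept and which was lost without untreated IPO13-/- replicate 1 (0.35, adjusted p = 0.117). Ncoa3, a coactivator of nuclear receptors, had 0.22 (adjusted p = 0.0443), kept by 1 of 8 such fits (0.15 to 0.27), and lost with all other factors, filters and tools but the replicate block.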

How the results depend on the processing

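Of 1155 recomputed log2 fold changes, 1030 kept their direction and their side of the threshold, 78 fell below it, 3 passed it and 44 changed sign. All that changed sign did not pass in the first place. By setting, library totals gave 0.0133 for Stra8 and 0.0335 for Rxrb (untreated genotypes), 0.0277 for Crabp1 (H2O2, IPO13+/+), and -0.0617 for Cyp2s1 and -0.0542 for Rara (interaction). A filter by expression gave 0.0171 for Crabp1 (H2O2, IPO13+/+) and -0.0070 for Cyp2s1 (interaction), fits of 4 libraries 0.0151 for Crabp1 (H2O2, IPO13+/+), relative log expression factors -0.0019 and DESeq2 -0.0011 for Cyp2s1 (interaction). The cause was not tested.

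Counts of members changed with the tool. DESeq2 gave 2 instead of 4 higher in untreated IPO13-/- ESCs, 2 instead of 4 lower after H2O2, and 1 instead of 2 lowered by H2O2 in IPO13-/- ESCs. The single member raised by H2O2 in IPO13-/- ESCs became 0 with library totals, limma-voom and DESeq2. Over both directions edgeR, limma-voom and DESeq2 called 7, 6 and 5 (untreated genotypes), 6, 5 and 4 (treated genotypes), 2, 2 and 2 (H2O2, IPO13+/+) and 3, 2 and 1 members (H2O2, IPO13-/-).

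Leaving out each library gave 3 to 4 higher and 2 to 3 lower for untreated genotypes, 2 to 3 higher and 2 to 4 lower for treated genotypes, and 0 to 1 higher and 1 to 2 lower for H2O2 in IPO13-/- ESCs, while the counts for H2O2 in IPO13+/+ ESCs stayed at 1 and 1. Ranges that included 0 were, for untreated genotypes, Stra8 -0.14 to 0.0134 and Rxrb -0.10 to 0.0109, and for treated genotypes Rarb -0.22 to 0.54 and Stra8 -0.0435 to 0.32. For H2O2 in IPO13+/+ ESCs they were Crabp1 -0.0807 to 0.0537, Crabp2 -0.0741 to 0.12, Rara -0.10 to 0.0059 and Rarb -0.0114 to 0.80, and in IPO13-/- ESCs Crabp2 -0.0554 to 0.0450, Rara -0.0519 to 0.0119 and Stra8 -0.13 to 0.24. For the interaction they were Cyp26a1 -0.38 to 0.0864, Crabp2 -0.13 to 0.0594, Rara -0.0375 to 0.0712, Cyp2s1 -0.0694 to 0.0800 and Dhrs3 -0.11 to 0.29.

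Fitting the replicate number as a block called 7, 6, 2, 3 and 0 members in the 4 comparisons and the interaction, equal to the counts without it. The correlation of the deviations of same-numbered libraries was 0.27 to 0.56 for 3 pairs of groups and -0.06 to 0.0034 for the 3 pairs with treated IPO13+/+ libraries, so it does not settle whether the numbers mark shared cultures, and the labels do not say. Rarb and Cyp26b1 had the fewest reads, 7 to 54 per library.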
